A study of Caenorhabditis elegans with 6 samples.

Results

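The col genes are the numbered members of the cuticle collagen family of *C. elegans*. They were recognised in the deposited count table by symbols made of col- and a number. The table listed 159 such genes among 46936, of which 157 had at least 1 read in the 6 libraries and form the set described here. The study sequenced poly-A RNA of whole N2 wild-type animals, with 3 biological replicates on control plates treated with H2O and 3 on plates with Protein powder 2 (MProPow2), a protein powder that contains milk fat globule membrane. All animals, control included, were fed *E. coli* OP50 at 20 °C, moved to 5-fluorouracil at the L4 stage to stop progeny, and collected on day 2 of adulthood. Each library holds whole animals, so fewer cells of a type and less RNA per cell cannot be told apart.

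The cuticle is the collagen-rich coat that covers the worm. The hypodermis, the skin-like tissue under it, lays it down anew at each larval molt, and the coat made at the end of the L4 stage is the one the adult keeps. A col gene codes for a short chain with runs of glycine followed by 2 other residues, and such chains wind into a triple helix. Prolyl 4-hydroxylases modify the chains, proteases trim them, and a dual oxidase and peroxidases crosslink them through tyrosine. Many col genes are active at 1 stage of life only, so their levels depend on age. In the Ensembl annotation of WBcel235, 156 of the 159 symbols were found, all protein-coding, with a median coding length of 912 bases. The authors' build was not given in the sources used here, and no positions are printed.

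Libraries held between 28859395 and 37501098 counts. Of the 157 col genes with reads, 81 passed the filter on low counts and were tested among 14534 genes, and 76 were below it, with 1 to 74 reads in all libraries together (median 17.5). Among the 81, 61 were at the filter's level in every library, 12 only in all MProPow2 libraries and 3 only in all control libraries, so the members that passed are not a neutral sample of the family. CPM, the reads of a gene scaled to equal library sizes, use TMM factors. Levels between genes are compared in the deposited FPKM, which are per kilobase of gene. A positive log2 fold change means higher in MProPow2, and a gene was called at an adjusted p under 0.05 over all genes tested.

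A small number of col genes carried nearly all of the family's reads. The 21 genes with a mean of at least 50 FPKM, a bound chosen after the values were seen, held between 97.4% and 98.0% of the col CPM of each library. The most abundant was col-119, with a mean of 1571 FPKM over the 6 libraries. It was followed by col-140 (963 FPKM), col-122 (895 FPKM), col-181 (805 FPKM), col-95 (773 FPKM), col-143 (768 FPKM), col-101 (731 FPKM), col-106 (716 FPKM), col-178 (616 FPKM) and col-184 (571 FPKM). The FPKM ranges over the 6 libraries overlapped between all neighbours in this order, from 1229.7 to 1974 for col-119 and from 833 to 1277 for col-140. Within each of the 6 libraries, however, col-119 was the highest. The ranks after it are not firm: in MProPow2 replicate 3, col-122 (898 FPKM) lay above col-140 (841 FPKM). The adult cuticle collagen col-19, a gene switched on at the last molt by the heterochronic factor LIN-29, stood at rank 14 with 394 FPKM. Next came 31 genes from 1 to 50 FPKM and 105 genes under 1 FPKM. Thus col-7 and col-62, also known as adult cuticle collagens, were at 0.32 and 0.44 FPKM in these animals. The dauer collagens col-2 and col-40 had 38 and 18 reads in all 6 libraries.

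**Figure D1:**
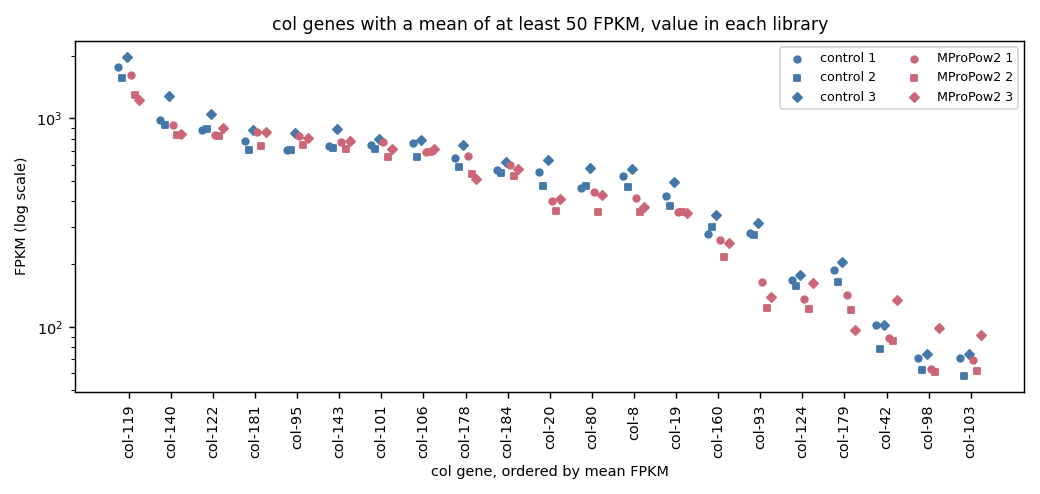
FPKM on a log scale for the 21 col genes with a mean of at least 50 FPKM, ordered by that mean, with 1 point per library (3 control in blue, 3 MProPow2 in red, marker shape for the replicate). Levels fall from col-119 at a mean of 1571 FPKM to col-103 at 71.2 FPKM, and control replicate 3 is the highest library for 18 of the 21 genes.

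All col genes together took 1.21%, 1.14% and 1.40% of the counts in control replicates 1, 2 and 3, and 1.14%, 1.06% and 1.06% in MProPow2 replicates 1, 2 and 3. Their summed level was 12135, 11361 and 13994 CPM in control and 11369, 10389 and 10833 CPM in MProPow2. The control libraries thus ran higher, with an overlap, since MProPow2 replicate 1 lay just above control replicate 2. The means were 12496 ± 1353 CPM (SD, n = 3) and 10864 ± 491 CPM (n = 3), a ratio of 0.87, which became 0.93 without control replicate 3. The 10 most abundant genes held 71.5% to 71.7% of the col CPM in control and 74.1% to 75.4% in MProPow2. That share did not overlap between the groups, while the summed CPM of these 10 genes did, with means of 8953 ± 977 and 8140 ± 392.

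In the test across all genes, 5 of the 81 col genes were called lower in MProPow2 and 1 was called higher. This is 6.17% lower and 1.23% higher, beside 1.47% called lower and 1.53% called higher among all 14534 genes tested. At an unadjusted p under 0.05, 14 col genes (17.3%) were lower and 6 (7.41%) higher, beside 7.75% and 9.13% of all genes. The CPM of the groups did not overlap in 14 col genes that were lower (17.3%, beside 12.3% of all genes) and in 9 that were higher (11.1%, beside 11.1%). These 2 counts of higher genes include some, such as col-84 and col-85, that reached the filter's level in all MProPow2 libraries but not in all control libraries. Such genes passed the filter through the group where they were high, so the counts of higher genes are partly set by the filter. The log2 fold changes of the 81 ran from -1.29 to 1.62 with a median of -0.10, against a median of -0.01 for all genes. With upper-quartile scaling, which put 63.6% of the calls over all genes on the higher side (51.03% with TMM), 3 col genes were called lower and 1 higher, and the median of the 81 was -0.03. The count of lower calls was 3 without control replicate 1, MProPow2 replicate 1 or MProPow2 replicate 2, 2 without control replicate 2 or 3, and 9 without MProPow2 replicate 3.

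**Figure D2:**
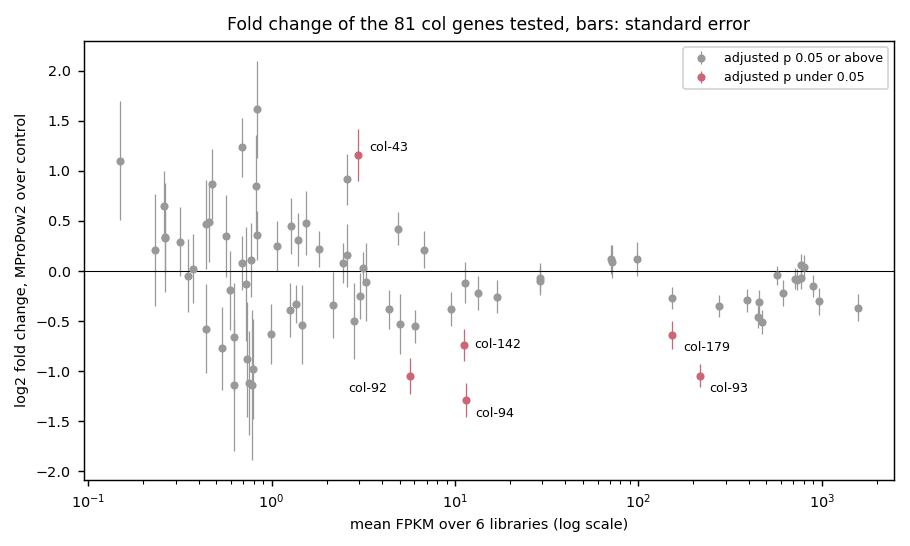
Log2 fold change (MProPow2 over control) with its standard error for the 81 col genes tested, against the mean FPKM over 6 libraries on a log scale. The 6 genes called are in red: col-92, col-93, col-94, col-142 and col-179 lie below 0 and col-43 above, and the standard errors widen from a median of 0.11 at 50 FPKM or more to 0.41 under 1 FPKM.

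The clearest change was in col-92, col-93 and col-94, which stand next to each other with no other protein-coding gene between them. Each was at about the same fraction of control, between 40.8% and 48.5%. The middle gene col-93 (identifier 259335) was the abundant one, at 286, 282 and 323 CPM in control replicates 1, 2 and 3 and at 165, 127 and 140.5 CPM in MProPow2 replicates 1, 2 and 3. All 3 MProPow2 libraries were far below all 3 control libraries, on 3812 to 10592 reads per library. The group means (± SD, n = 3) were 297 ± 22.3 and 144.05 ± 19.1 CPM, and the log2 fold change was -1.04 (standard error, SE, of 0.11 and adjusted p = 0.00226, edgeR). Among all genes tested it ranked 26th by p. For col-94 (identifier 259336), the control libraries held 15.97, 14.6 and 20.3 CPM and the MProPow2 libraries 8.01, 6.76 and 6.004 CPM. That is again a gap between the groups, with a log2 fold change of -1.29 (SE 0.17, adjusted p = 0.00522, edgeR), the largest fall of any col gene tested. In col-92 (identifier 176528), values went from 6.96, 7.79 and 8.67 CPM in control to 4.56, 3.66 and 3.07 CPM in MProPow2. Its log2 fold change was -1.05 (SE 0.18, adjusted p = 0.0196, edgeR).

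The fall of col-93 and col-94 was called with each library left out in turn, at log2 fold changes from -1.15 to -0.96 and from -1.41 to -1.13. With limma on FPKM, the call of col-93 was lost in 2 of 3 fits and that of col-94 and col-92 in all 3. The call of col-92 was lost without control replicate 2 (adjusted p = 0.0927) or control replicate 3 (adjusted p = 0.092), and held in the other 4 cases. These 3 genes have the same coding length of 912 bases in the annotation, and whether their sequences are near copies was not examined, so reads may have been shared among them. For each 100 reads of col-93, there were 2.43, 2.76 and 2.68 reads of col-92 in control and 2.77, 2.89 and 2.18 in MProPow2. The corresponding reads of col-94 were 5.58, 5.17 and 6.29 in control and 4.86, 5.33 and 4.27 in MProPow2. Neither protein-coding gene next to the run was called. On one side, dhc-4 had a log2 fold change of 0.28 (adjusted p = 0.786), and on the other dmsr-5 had 0.55 (adjusted p = 0.652), both on at most 50 reads per library.

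**Figure D3:**
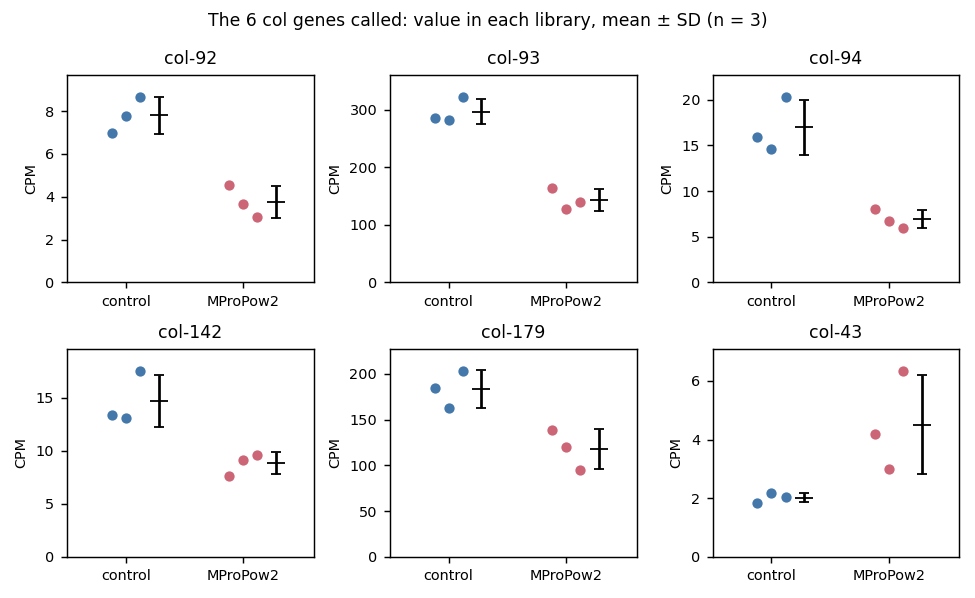
CPM in each library for the 6 col genes called, 3 control libraries in blue and 3 MProPow2 libraries in red, with the mean ± SD (n = 3) beside them and each axis starting at 0. No group overlaps another in any panel: the 5 lower genes have every MProPow2 value under every control value, and col-43 has its 3 control values between 1.84 and 2.16 CPM and its MProPow2 values between 2.998 and 6.34 CPM.

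Both other lower genes were called with less margin. One was col-179 (identifier 181308), an abundant gene. It was at 185, 163 and 203 CPM in control and 139, 120.2 and 94.9 CPM in MProPow2. The groups were apart, with a log2 fold change of -0.64 (SE 0.14, adjusted p = 0.044, edgeR). Control libraries held col-142 (identifier 188514) at 13.4, 13.1 and 17.5 CPM, against 7.63, 9.16 and 9.61 CPM in MProPow2. Its log2 fold change was -0.74 (SE 0.16, adjusted p = 0.0424, edgeR), and its mean in MProPow2 was 60.0% of control. With 1 library left out, each of these genes was called only without MProPow2 replicate 3. In the other 5 cases the adjusted p ran from 0.0556 to 0.163 for col-179 and from 0.071 to 0.159 for col-142. Upper-quartile scaling ended both calls (adjusted p = 0.0807 for col-179 and 0.0717 for col-142). Each also has an exon that overlaps one of a gene on the opposite strand, C34F6.11 for col-179 and T15B7.14 for col-142, and the strand setting of the counting is not given in the sources used here. Over their own reads, C34F6.11 had a log2 fold change of -0.41 (adjusted p = 0.503) and T15B7.14 of 0.79 (adjusted p = 0.0828). With 73 to 221 and 30 to 75 reads per library, these partners held fewer reads than the col genes they overlap.

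Only col-43 (identifier 179187) was called higher. It rose from 1.84, 2.16 and 2.03 CPM in control to 4.19, 2.998 and 6.34 CPM in MProPow2, on 53 to 190 reads per library. The control libraries were close together and the MProPow2 libraries spread over a wide range, with a log2 fold change of 1.16 (SE 0.26, adjusted p = 0.0493, edgeR). The call held without MProPow2 replicate 2 or 3. It was lost when any control library or MProPow2 replicate 1 was left out, at adjusted p from 0.132 to 0.157. The call was also lost with at least 10 counts asked of every library (adjusted p = 0.0548) and in the 3 limma fits (adjusted p from 0.21 to 0.241). A replicate block ended the call of col-43 as well.

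Just beyond the threshold lay 3 genes, named after their values were seen. For col-8, control libraries were at 497, 439 and 536 CPM and MProPow2 libraries at 384, 337 and 348 CPM (log2 fold change -0.46, adjusted p = 0.0525, edgeR). For col-20, the values were 559, 481 and 642 CPM against 402, 371 and 410.3 CPM (log2 fold change -0.51, adjusted p = 0.0548). Both abundant genes had groups that did not overlap, and both were called by DESeq2. The low-abundance gene col-45 had a log2 fold change of 1.23 (adjusted p = 0.0548), from 0.42, 0.48 and 0.51 CPM to 0.84, 1.33 and 1.17 CPM, with groups apart. It was called with RLE scaling, with no filter and with at least 10 counts in every library, and not by DESeq2. The largest rise in value, a log2 fold change of 1.62 in col-84, came from 3, 27 and 14 reads in control and 29, 42 and 53 in MProPow2 and did not pass (adjusted p = 0.124), although DESeq2 and the edgeR fit with no filter called it.

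Most of the abundant col genes were not called. Of the 21 genes with at least 50 FPKM, 16 had a log2 fold change below 0 (15 with upper-quartile scaling). The median of the 21 was -0.22, and 52.9% of all genes tested were below 0. In 8 of the 21, every MProPow2 library was under every control library, a pattern found in 12.3% of all genes tested. Of the 21, only col-93 and col-179 were called lower, beside 1.47% of all genes. For col-19, control libraries were at 400.4, 359.6 and 474 CPM and MProPow2 libraries at 334, 342 and 332 CPM. These groups were apart by a small margin, and the log2 fold change of -0.29 did not pass (SE 0.11, adjusted p = 0.224, edgeR). The leading gene col-119 went from 1565 ± 188 CPM (SD, n = 3) to 1215 ± 167 CPM (n = 3), with MProPow2 replicate 1 inside the control range (log2 fold change -0.37, adjusted p = 0.205). For col-140, the means were 1008 ± 184 and 818 ± 40.4 CPM (log2 fold change -0.30, adjusted p = 0.296). Without control replicate 3, the log2 fold change of col-19 was -0.17 and that of col-140 was -0.13. At the other end, col-181 and col-95 had log2 fold changes of 0.04 (SE 0.12) and 0.06 (SE 0.11). The remaining genes of the first 10 by FPKM, of which col-184 was at 0.02 under upper-quartile scaling, had log2 fold changes between -0.22 and -0.04 and were not called.

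Most of the abundant genes had their highest value in the same library. Control replicate 3 was the highest of the 6 libraries in 18 of these 21 genes, a share that was not computed for all genes tested. The 3 exceptions, col-42, col-98 and col-103, were highest in MProPow2 replicate 3 and lay next to each other in rank, from 98.7 to 71.2 FPKM. In control, col-42 had 109.5, 84.2 and 109.8 CPM, and in MProPow2 it had 93.5, 93.7 and 143 CPM. For col-98 the MProPow2 values were 65.9, 65.2 and 103.6 CPM, and for col-103 they were 81.7, 74.2 and 108 CPM, with control values up to 78.9 and 89.2 CPM. None of the 3 was called, and replicates 1 and 2 of MProPow2 lay within or below the control range.

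A few col genes, col-10, col-13, col-65, col-120 and col-144 among them, are known from work on the cuticle of long-lived worms. None of the 3 tested, col-10, col-120 and col-144, was called. The values of col-144 were 14.02, 13.9 and 16.4 CPM in control and 12.4, 15.6 and 10.1 CPM in MProPow2 (log2 fold change -0.22, adjusted p = 0.583). For col-10 they were 3.51, 2.43 and 3.78 CPM against 2.14, 3.23 and 2.80 CPM (log2 fold change -0.25, adjusted p = 0.666). The groups overlapped in both. With 7 to 30 reads per library, col-120 had a log2 fold change of -0.77 (SE 0.41, adjusted p = 0.395). For col-65, not tested, 24, 4 and 1 reads were counted in control and 5, 3 and 5 in MProPow2. The near-identical neighbours col-12 and col-13, used at each molt, were below the filter and were not tested. Together they had 16, 26 and 12 reads in control replicates 1, 2 and 3, and 3 reads in each of the 3 MProPow2 libraries, so the groups did not overlap. Such a gap on the lower side was found in 12.3% of all genes tested, a share that does not cover genes below the filter. An exact permutation test cannot give a two-sided p below 0.1 with 3 libraries against 3. When every gene with at least 1 read entered the edgeR fit, 4 of the col genes below the filter were called. Lower were col-13 (adjusted p = 0.0441) on 6, 16 and 8 reads against 2, 1 and 2, and col-145 and col-165 (adjusted p = 0.0388 and 0.00809), whose reads came mostly from control replicate 1. Higher was col-66 (adjusted p = 0.0271), on 0, 2 and 0 reads against 7, 4 and 11. DESeq2 on the same genes called none of these 4, but a gene to which it gave no adjusted p also counted as not called.

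The transmembrane collagen col-99 is unlike the rest: its chain has a part that spans the cell membrane. It is known from the guidance of axons, not from the cuticle coat. Its coding length is 2205 bases. It was at 17.01, 20.1 and 16.5 CPM in control and at 12.7, 18.1 and 6.20 CPM in MProPow2. MProPow2 replicate 3 stood far below the other libraries, and the log2 fold change of -0.53 had a standard error of 0.30 (adjusted p = 0.422, edgeR). A wide spread within MProPow2 was also seen in col-139, at 1.09, 2.36 and 3.67 CPM in MProPow2 replicates 1, 2 and 3 against 2.37, 3.25 and 4.38 CPM in control. In col-69, the third gene of widest MProPow2 range, 63 reads in all were counted.

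Control replicate 1 stood apart in a set of low-abundance col genes. In 7 of the 81 tested genes its CPM was over 2 times that of the highest other library, with at least 10 reads. That is 8.64% of the col genes tested, while the same held for 0.172% of all genes tested (25 genes). The 7 were col-74, col-97, col-104, col-107, col-109, col-125 and col-167, with 50 to 83 reads in control replicate 1 and at most 31 in any other library. For col-97, control replicates 1, 2 and 3 had 83, 8 and 26 reads and MProPow2 replicates 1, 2 and 3 had 14, 27 and 12. For col-104, there were 50, 10 and 14 reads in control and 13, 13 and 7 in MProPow2. Without control replicate 1, the log2 fold change of col-97 went from -1.14 to 0.18 and that of col-104 from -1.14 to 0.02. The same library stood out in 5 genes below the filter, of which col-165 had 56 reads there and 1 to 6 elsewhere. No other library stood out in more than 1 col gene by this rule, which was set after the values were seen, although MProPow2 replicates 2 and 3 did so in 24 and 49 of all genes tested. Genes of molting and of the apical matrix summed to 421 CPM in control replicate 1 and to between 347 and 699 CPM in the other libraries. Their 15 tested members had a median of -0.01 (0.05 with upper-quartile scaling) and none was called. Among embryo and larval marker genes, control replicate 1 was at 56.8 CPM, within the range of 44.4 to 72.5 CPM of the others. Abundant genes carry both sums, such as noah-1 and pha-4 at 91.3 and 30.1 CPM in control replicate 1. The sums therefore cannot show how low-abundance genes of these lists behaved there, and the origin of the pattern was not tested.

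**Figure D4:**
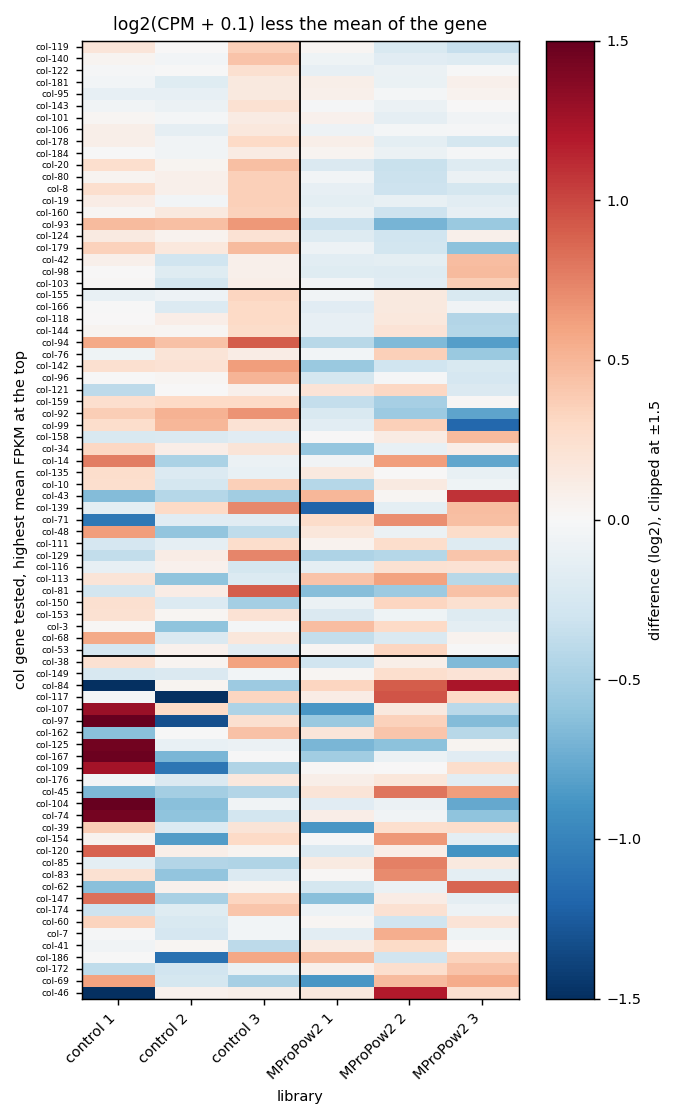
Deviation of log2(CPM + 0.1) from each gene's mean, clipped at 1.5 either way, for the 81 col genes tested, with the highest mean FPKM at the top and 1 column per library and lines between the 21 genes of at least 50 FPKM, 31 from 1 to 50 FPKM and 29 under 1 FPKM. Control replicate 3 is red along the top, and control replicate 1 holds the strongest red among the genes under 1 FPKM.

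Many col genes have another col gene beside them. Of 156 col genes matched to protein-coding genes of the RefSeq table (WBcel235), 45 stood in 19 runs with no other protein-coding gene between them. In 9 runs at least 2 members were tested, and in 8 of these the tested members had log2 fold changes of the same sign. No p is given for this count, since near copies can share reads. Some of the signs are uncertain, as for col-7 (0.29, SE 0.34) and col-39 (-0.19, SE 0.39). The share of same-sign runs among neighbouring genes in general was not computed, so nothing is drawn from the count. The run of col-92, col-93 and col-94 was the only one with more than 1 gene called. In the run of col-178 and col-179, the log2 fold changes were -0.22 (adjusted p = 0.457) and -0.64 (adjusted p = 0.044). For col-159 and col-160, whose exons overlap on 1 strand, they were -0.55 (adjusted p = 0.12) and -0.35 (adjusted p = 0.141), and both had groups that did not overlap. The exception in sign was the pair col-95 and col-96, at 0.06 and -0.38.

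**Figure D5:**
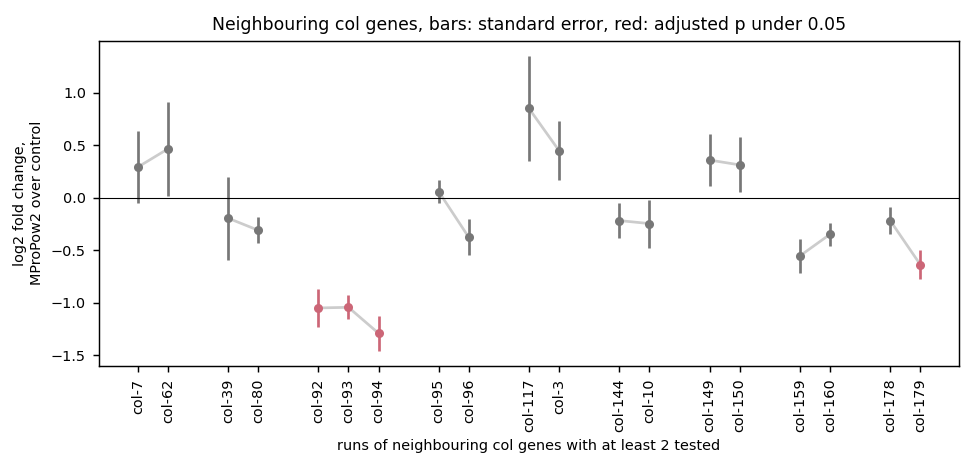
Log2 fold change (MProPow2 over control) with its standard error for the tested members of the 9 runs of neighbouring col genes in which at least 2 were tested, joined by grey lines. The members col-92, col-93 and col-94 lie together between -1.29 and -1.04, and red marks an adjusted p under 0.05.

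No tested gene in 3 lists of enzymes that make cuticle collagen was called. Of 8 genes for prolyl hydroxylation and collagen folding, 6 were tested, all with log2 fold changes below 0 (median -0.17, and 4 of 6 below 0 with upper-quartile scaling), and none was called. Among them pdi-2, which codes for the protein disulfide isomerase subunit of the worm's prolyl 4-hydroxylases, went from 943 ± 130 CPM (SD, n = 3) to 776 ± 194 CPM (n = 3, adjusted p = 0.496, edgeR), and dpy-18, a catalytic subunit, from 47.7 ± 6.90 to 46.1 ± 12.8 CPM. Of the procollagen-trimming proteases, 8 of the 9 tested had values above 0 (median 0.19) with none called, and dpy-31, an astacin that trims the C-terminal end of the collagen SQT-3, had 0.37 (adjusted p = 0.141). The 8 crosslinking genes had a median of 0.22, again with none called. The nearest was the heme peroxidase mlt-7, at 13.2, 13.3 and 12.7 CPM in control and 20.9, 15.95 and 22.9 CPM in MProPow2 (log2 fold change 0.61, adjusted p = 0.0581). These lists can be read beside the 3.01% of all tested genes called in either direction. Over all tested genes, 52.9% had a log2 fold change below 0.

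Among other matrix genes and their regulators, 1 gene was called in each direction, beside 1.53% of all genes called higher and 1.47% lower. Of 29 cuticlin genes tested (median 0.15), which code for non-collagen cuticle proteins and their relatives, 1 was called higher, cutl-18 at a log2 fold change of 1.23 (SE 0.19, adjusted p = 0.011). The collagens with named shape mutants (dpy, rol, sqt, bli and lon genes) had 12 tested members, a median of -0.03 (0.04 with upper-quartile scaling) and none called. Their summed level was 390 to 530 CPM in control, and 416, 504 and 184 CPM in MProPow2 replicates 1, 2 and 3. MProPow2 replicate 3 was thus far below the rest, as for col-99, with dpy-14, dpy-17 and sqt-3 at 71.7, 62.4 and 30.3 CPM there. This was not particular to collagens. The same library was lowest in the sums of molting and apical matrix genes (347 CPM) and of hypodermis and seam markers (255 CPM). It was highest in the sum of germline and oocyte markers (4568 CPM). The basement membrane collagens emb-9, let-2 and cle-1, which lie in sheets around tissues, had a median of -0.03 (0.03 with upper-quartile scaling) and summed to 364 to 397 CPM in control and 360 to 418 CPM in MProPow2. Of 16 regulators of cuticle genes and molting (median 0.08), pqm-1, a zinc finger factor, was called lower, from 35.4 ± 1.18 to 21.0 ± 4.09 CPM (log2 fold change -0.75, adjusted p = 0.0236). The collagen regulators blmp-1, lin-29 and elt-3 had log2 fold changes of 0.51 (adjusted p = 0.105), 0.16 (adjusted p = 0.685) and 0.10 (adjusted p = 0.831).

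The summed markers of the tissue that makes the cuticle overlapped between the groups. Of 12 hypodermis and seam markers 9 were tested, 6 of them with log2 fold changes above 0, and their summed level was 290 to 349 CPM in control and 255 to 375 CPM in MProPow2. Intestinal markers were below 0 in 7 of 8 genes, at 1201 to 1232 CPM against 874 to 1153 CPM. Body wall muscle markers were below 0 in 5 of 6 genes, at 553 to 611 CPM against 457 to 522 CPM. Of all genes tested, 52.9% were below 0. In muscle, mup-2, a troponin T, was called lower (log2 fold change -0.49, adjusted p = 0.0242), beside 1.47% of all genes called lower. No intestinal or hypodermal marker was called. At an unadjusted p under 0.05 (edgeR), 5 of 8 intestinal and 2 of 6 muscle markers were lower, beside 7.75% of all genes tested. By that measure no hypodermis and seam marker was lower and 1 of the 9 tested was higher, beside 9.13% of all genes. The medians of the other marker lists were -0.01 for neurons, -0.08 for germline and oocytes, 0.02 for gonad sheath, spermatheca and uterus, 0.07 for embryos and larvae, and 0.49 for the 7 tested major sperm protein genes, with none called. Under upper-quartile scaling the neuronal median was 0.05 and those of the other 4 lists kept their sign. No marker was at 0 reads in all libraries except 1 major sperm protein gene, and the part of these tissues in the values of the col genes was not tested.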

How the data were processed

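Poly-A RNA of whole day 2 adults was sequenced in 3 control and 3 MProPow2 libraries. Per the labels, CASAVA, HISAT2 and featureCounts were used. The authors deposited raw read counts per gene and FPKM, a unit scaled to library size and gene length. The step from counts to FPKM, the genome build, the annotation and the strand setting were not given in the sources read.

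Genes were kept by filterByExpr (minimum count 10) and scaled by TMM, then compared by the quasi-likelihood test of edgeR 4.0.16 under R 4.3.3 (Benjamini-Hochberg adjustment over 14534 genes), with the standard error taken from the F statistic. CPM use the same scaled library sizes. Alternatives were 2 other scalings, 2 other filters, DESeq2 1.42.0, limma 3.58.1 on log2 of FPKM plus 1 or 0.1, a replicate block, and each library left out in turn. The labels call the libraries biological replicates, and no pair of libraries of the same group agreed within sampling noise.

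The members and the gene lists were chosen with earlier results of these data known. Genes named by rule were the col genes called, the 10 of highest FPKM, the 3 of widest log2 CPM range in each group, and col-2, col-7, col-10, col-12, col-13, col-19, col-40, col-62, col-65, col-99, col-120 and col-144. Every other gene and the FPKM bounds of 50 and 1 were chosen after their values were seen. Gene order came from the RefSeq table of WBcel235 and coding lengths and exon overlaps from the Ensembl annotation of WBcel235.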

Additional observations from a re-analysis of the deposited data

How the results depend on the processing

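Over all genes, 223 were called higher and 214 lower. Without a filter the counts were 684 and 542, with DESeq2 386 and 356 on the filtered genes and 341 and 388 on every gene with a read, with limma on log2(FPKM + 1) 34 and 47, on log2(FPKM + 0.1) 88 and 51, and unfiltered 30 and 42. Upper-quartile scaling left 131 lower. Leaving out 1 library gave 17 to 627 higher and 55 to 417 lower. For the col genes, 1 was called higher and 5 lower. RLE scaling gave 2 higher, no filter 5 higher and 11 lower, DESeq2 3 higher in both fits, and upper-quartile scaling 3 lower. The 3 limma fits gave 0 higher, and 1, 0 and 0 lower. Leaving out 1 library gave 0 to 2 higher and 2 to 9 lower. DESeq2 on the filtered genes called 10 col genes, among them all 6. The cause of these differences was not tested. Same-numbered libraries showed little correlation of their deviations (-0.05, 0.10 and -0.12). The labels do not say whether a replicate number marks a shared culture or day, and these 3 values cannot settle it. With a replicate block, 90 genes were called higher and 102 lower, and among col genes 0 higher and 2 lower, col-93 and col-94.

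The median log2 fold change of the col genes, -0.10, was -0.031 with upper-quartile scaling, 0.019 with no filter (157 genes), -0.017 with DESeq2 on every gene, -0.035, -0.038 and -0.00030 with the limma fits, and -0.18 to -0.033 with 1 library left out. The summed CPM ratio ran from 0.83 to 0.93 over all its alternatives. The sign turned in genes that were not called: col-184 (0.021 with upper-quartile scaling), and col-109 (0.10 with the replicate block, 0.19 with limma on log2(FPKM + 0.1), 0.0070 with both other limma fits). Leaving out 1 library also turned the sign, with ranges of -0.032 to 0.14 for col-181, -0.13 to 0.044 for col-143, -0.080 to 0.020 for col-184, -1.67 to 0.18 for col-97, -0.57 to 0.99 for col-109, -1.58 to 0.020 for col-104, -0.061 to 0.71 for col-62, -0.0069 to 0.44 for col-7 and -0.094 to 0.72 for col-69. Of the called genes, col-93 was not called in 2 limma fits (adjusted p = 0.0553 and 0.0696), col-94 in 3, and col-92 in 6 of 16 alternatives. Less stable were col-43, col-142 and col-179, called in 7, 6 and 5 of the 16. Genes under 1 FPKM had a median standard error of 0.41, against 0.11 at 50 FPKM or more.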

Other observations

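Besides the 7 col genes, 18 others of all genes tested stood out in control replicate 1, and 4 of these are given here. Control replicate 1 held 77 reads of the cuticlin gene cut-2, against 27 to 40 in the other libraries. For ram-2, a gene of the male tail rays, it held 64 reads against 4 to 32, for abu-14 107 against 20 to 50, and for nas-38, an astacin protease, 26 against 6 to 12. These 4 were chosen after their values were seen, and no reason for the pattern was tested.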
